A study of Mus musculus with 7 samples.

Results

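Genes that mark subsets of dermal fibroblasts were followed in the dorsal skin of old mice treated on the skin surface with ABT-263. The 10 markers were taken by gene symbol from a fixed list, chosen with earlier results of these data known. All 10 are among the 55450 genes of the count table. They comprise 4 markers of fascia or progenitor fibroblasts (Dpp4, Pi16, Cd34 and Ly6a), 2 of reticular fibroblasts (Dpt and Gsn), 1 of papillary fibroblasts (Crabp1) and 3 of activated fibroblasts (Fap, Pdpn and Lrrc15). ABT-263, also called navitoclax, binds anti-apoptotic Bcl-2 family proteins and is used as a senolytic, a drug meant to kill senescent cells. All mice were wild type C57BL/6 males aged 24 months, and their backs were clipped, depilated and cleaned with ethanol before treatment. The skin then received 5 µM ABT-263 (mice 476, 477 and 478) or the vehicle DMSO alone (mice 480, 481, 482 and 483) under a semi-occlusive dressing for 5 days. Polyadenylated RNA of the whole skin homogenate was sequenced, with 1 library for each mouse.

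The dermis holds fibroblasts of distinct depth and function. Papillary fibroblasts lie beneath the epidermis, reticular fibroblasts lay down the coarse collagen of the deep dermis, and fibroblasts of the fascia below include progenitor-like cells that enter wounds. Activated fibroblasts, which appear in wounds, fibrosis and tumours, remodel matrix and carry surface proteins that resting cells hold at low levels. Several of the markers are not limited to fibroblasts. Cd34 and Ly6a are also made by blood endothelium, Pdpn by lymphatic endothelium and Gsn by many cells, and a bulk library cannot tell fewer cells of a type apart from less RNA per cell.

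Total counts were 20344364 to 26824123 in the DMSO libraries and 27325963 to 43562330 in the ABT-263 libraries, so that every ABT-263 library was the larger. Levels are given as CPM, counts scaled to a common library total, with library sizes from the TMM method, and the groups were compared with the two-sided quasi-likelihood test of edgeR and p-values adjusted by the Benjamini-Hochberg method over the 17959 genes kept by its expression filter. A gene was called at an adjusted p-value under 0.05, which 24.2% of the genes tested reached. DMSO-treated mouse 481 stood apart in hair shaft keratins, at 2359 CPM in sum against 17.6 to 18.7 CPM in the other DMSO-treated mice. ABT-263-treated mouse 476 had the highest sum of macrophage markers, 2523 CPM, beside 724 and 1152 CPM in mice 477 and 478 and 193 to 501 CPM in the controls. The labels name no batch, and p-values set the difference between the groups against the spread of these 7 mice within their groups.

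General fibroblast genes were found in every library, as a part of the RNA of whole skin. Skeletal muscle markers, at 26143 to 67514 CPM in sum, exceeded their sum in each library. The summed level of 14 general fibroblast genes (collagens, Pdgfra, Dcn, Lum, Vim and others) was 8122, 5305, 6443 and 7501 CPM in DMSO-treated mice 480, 481, 482 and 483. It was 13321, 11073 and 17750 CPM in ABT-263-treated mice 476, 477 and 478, above every DMSO-treated mouse. Of these 14 genes, 8 were called higher after ABT-263 and 0 lower, with a median log2 fold change of 1.03. Col3a1, which encodes a fibrillar collagen of the dermis, was at 489 ± 122 CPM (SD, n = 4) after DMSO. It reached 3724 ± 1620 CPM (SD, n = 3) after ABT-263 and so rose by 2.93 on the log2 scale (standard error 0.35, edgeR adjusted p = 0.00602). The intermediate filament gene Vim rose by 1.68 and Lum, which encodes a small proteoglycan of collagen fibrils, by 1.65 on the log2 scale, and both were called. Macrophage and blood endothelial markers rose as well, with 7 of 8 called in each list. The part of other cells in the Vim level was not tested. Thy1, a fibroblast surface protein that neurons and lymphocytes also carry, differed by 0.04 on the log2 scale (95% interval -0.42 to 0.50). Without DMSO-treated mouse 482 or without ABT-263-treated mouse 478, 5 of the 14 were called.

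Set against those general genes, none of the 10 subset markers passed the threshold. EdgeR called 0 of 10, beside 24.2% of all genes tested (12.4% higher and 11.7% lower), and the adjusted p-values lay between 0.0623 for Pdpn and 0.633 for Lrrc15. At an unadjusted p-value under 0.05 there were 4 markers (Dpp4, Ly6a, Fap and Pdpn), each higher after ABT-263, beside 40.1% of all genes in either direction and 20.6% in that direction. The Wald test of DESeq2 called 3 markers, Dpp4, Fap and Pdpn, each higher, beside 25.9% of the genes that it tested (13.6% higher). The markers' median log2 fold change was 0.55 and that of all genes tested 0.0022, with an SD of 0.96 over all genes. The direction was not shared, since 7 markers had a positive and 3 (Gsn, Crabp1 and Lrrc15) a negative value.

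**Figure D1:**
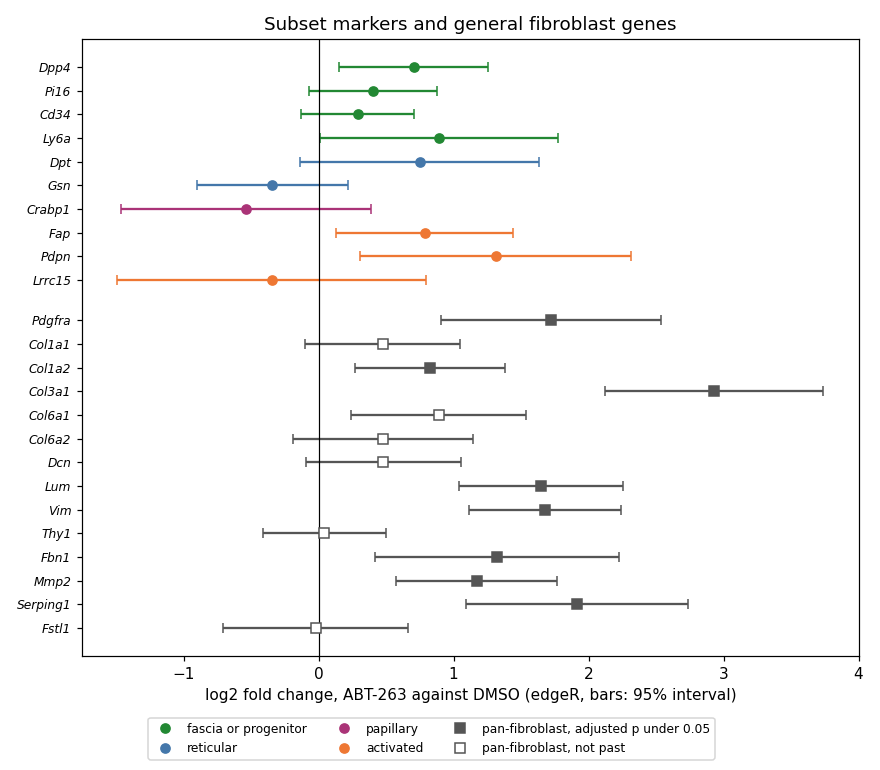
Log2 fold change of each subset marker (circles, coloured by subset) and of each general fibroblast gene (squares) after ABT-263 against DMSO, with 95% intervals from edgeR. Of the general genes, 8 of 14 are filled, which marks an adjusted p-value under 0.05, whereas 0 of the 10 subset markers reached it although the intervals of Dpp4, Ly6a, Fap and Pdpn lie above 0.

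Among the 7 mice, Pdpn was highest and Lrrc15 lowest in mouse 476, and Dpt was highest and Crabp1 lowest in mouse 478. Mouse 476 also held the highest Ly6a and the lowest Gsn, and mouse 478 the highest Dpp4, Pi16, Cd34 and Fap. The sequences just upstream of Pdpn, Lrrc15, Dpt and Crabp1 are shown, a choice of 4 markers made after these values were seen. Each is the 250 bases before the gene's RefSeq start on GRCm38.p6, written 5′ to 3′ on the gene's own strand, at chr1:164796413-164796662 (plus strand) for Dpt, chr9:54764498-54764747 (plus) for Crabp1, chr4:143299565-143299814 (minus) for Pdpn and chr16:30283255-30283504 (minus) for Lrrc15. Capitals mark matches, on either strand, to 5 short motifs that transcription factors bind, whose letters are given after the sequences.
Dpt: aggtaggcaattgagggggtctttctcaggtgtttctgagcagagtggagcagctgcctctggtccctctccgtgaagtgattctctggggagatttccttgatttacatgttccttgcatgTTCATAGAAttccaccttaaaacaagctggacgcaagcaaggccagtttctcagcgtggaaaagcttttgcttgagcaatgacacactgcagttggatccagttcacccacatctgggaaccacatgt
Crabp1: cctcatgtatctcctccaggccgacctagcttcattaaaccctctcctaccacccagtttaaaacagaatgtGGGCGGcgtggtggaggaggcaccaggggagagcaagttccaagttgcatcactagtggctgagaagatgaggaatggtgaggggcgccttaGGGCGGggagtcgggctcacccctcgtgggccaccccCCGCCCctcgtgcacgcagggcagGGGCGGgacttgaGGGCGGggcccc
Pdpn: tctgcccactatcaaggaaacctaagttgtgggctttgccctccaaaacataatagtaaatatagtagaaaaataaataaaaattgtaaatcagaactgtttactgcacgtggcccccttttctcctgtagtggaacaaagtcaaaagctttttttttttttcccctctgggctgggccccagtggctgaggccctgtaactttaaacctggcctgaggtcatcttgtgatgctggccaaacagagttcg
Lrrc15: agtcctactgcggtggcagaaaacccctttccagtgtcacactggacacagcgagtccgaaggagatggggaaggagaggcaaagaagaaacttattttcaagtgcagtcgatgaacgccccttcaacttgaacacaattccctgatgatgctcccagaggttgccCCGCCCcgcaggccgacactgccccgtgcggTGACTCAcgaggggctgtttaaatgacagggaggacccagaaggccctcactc
Crabp1 held 5 matches to the GC box, searched as GGGCGG, which was found in 32.7% of the 32851 RefSeq windows of this length. Lrrc15 held 1 match to the AP-1 motif, searched as TGANTCA, which begins 53 bases upstream of the start and which 6.75% of windows hold. Lrrc15 also held 1 match to the GC box. Dpt held 1 match to the STAT motif, searched as TTCNNNGAA, which begins 128 bases upstream and which 7.02% of windows hold. The TATA box, searched as TATAAA and found in 12.4% of windows, had no match in these 4. The same was true of the CCAAT box, searched by that name and found in 33.8% of windows. Pdpn held none of the 5 motifs, which says only that these letters are not in this window. Windows were at hand for 8 of the 10 markers.

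Among the fascia and progenitor markers, Dpp4 came nearest to a call. Dpp4 (ENSMUSG00000035000, GRCm38 chr2:62330073-62412231, minus strand) encodes a surface serine peptidase that cleaves short peptides and chemokines. It was at 14.4, 13.3, 10.9 and 12.9 CPM in DMSO-treated mice 480, 481, 482 and 483. After ABT-263 it was at 13.5, 21.2 and 28.3 CPM in mice 476, 477 and 478. Mice 477 and 478 lay above every DMSO-treated mouse and mouse 476 within their range, so the groups overlapped. Its fold change on the log2 scale was 0.70 (standard error 0.24, 95% interval 0.15 to 1.26, adjusted p = 0.0654 by edgeR). Without mouse 476 it was 0.95 and called by edgeR (adjusted p = 0.0221), as 12.0% of all genes then were, and without mouse 478 it was 0.43 (adjusted p = 0.231). Without mice 481 and 476 it was 0.94 and called (edgeR adjusted p = 0.0354), as 9.32% of all genes were. The DESeq2 Wald test called it with all mice, at 0.71 (adjusted p = 0.0378). Its smallest count was 213 (exact Poisson 95% interval 185 to 244, for counting error only).

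Pi16 (ENSMUSG00000024011, chr17:29317680-29330593, plus strand), a secreted or membrane-held peptidase inhibitor that marks adventitial and fascial progenitor fibroblasts, was at 348, 213, 311 and 260 CPM in DMSO-treated mice 480, 481, 482 and 483. ABT-263-treated mice 476, 477 and 478 had 355, 319 and 446 CPM. Mice 476 and 478 were above all DMSO-treated mice, and mouse 477 fell below DMSO-treated mouse 480. A log2 fold change of 0.40 (standard error 0.21, 95% interval -0.07 to 0.88) did not pass (adjusted p = 0.186 by edgeR).

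Cd34 (ENSMUSG00000016494, chr1:194938819-194961279, plus strand), a sialomucin of progenitor cells and vessels, was at 130.1, 92.6, 134 and 138 CPM after DMSO in the same order of mice. After ABT-263 it was at 130.3, 143 and 180.1 CPM. Mouse 476 matched DMSO-treated mouse 480, and the other treated mice were above all controls. Its log2 fold change of 0.29 (standard error 0.18, 95% interval -0.13 to 0.71, adjusted p = 0.270 by edgeR) was the smallest among the 7 positive ones. It was 0.13 after correction for transcript length and GC content, and 0.15 to 0.39 over the fits that left out 1 mouse.

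Ly6a (ENSMUSG00000075602, chr15:74994877-74998031, minus strand), a surface protein held by a lipid anchor that is widely used to mark stem and progenitor cells and that interferons induce, was at 410 CPM in DMSO-treated mouse 480. It was at 208, 338 and 342 CPM in mice 481, 482 and 483. After ABT-263 it was at 1014 CPM in mouse 476 but at 359 and 432 CPM in mice 477 and 478, of which mouse 477 lay below the highest control. On the log2 scale the difference of 0.89 (standard error 0.38, 95% interval 0.01 to 1.77, adjusted p = 0.122 by edgeR) was 0.29 without mouse 476. Summed levels of 13 interferon-stimulated genes were 1829 CPM in mouse 476, 348 and 477 CPM in mice 477 and 478 and 127 to 342 CPM after DMSO, and 5 of the 13 were called higher. Blood endothelial markers were higher as well, 253 to 584 CPM after DMSO and 804 to 1030 CPM after ABT-263, with 7 of 8 called. The part of either in the level of Ly6a was not tested. Of the 50-base words of Ly6a transcripts, 19% also occur in Ly6c1, Ly6c2, Ly6i or I830127L07Rik. This share was below 1% for each of the other 9 markers. Only uniquely aligned pairs were counted, so pairs that fit Ly6a and such a gene equally well are left out of its count. The effect on the Ly6a level was not tested.

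**Figure D2:**
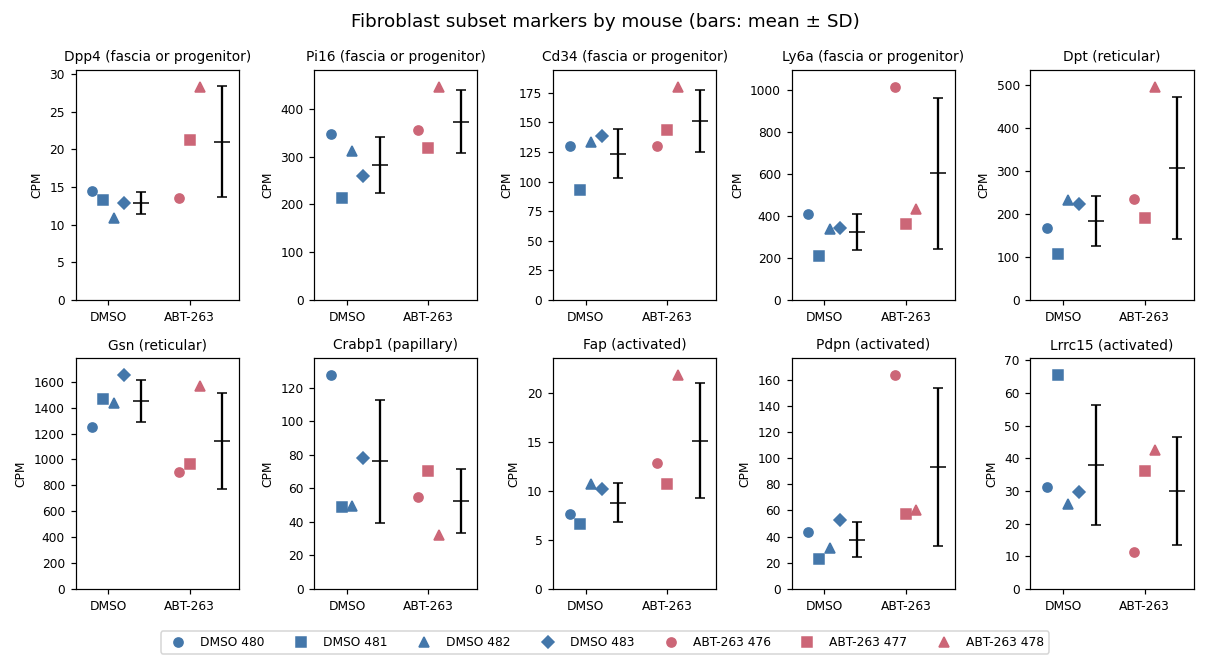
CPM of each subset marker in each mouse (symbols), with the group mean and SD beside the points, from 4 DMSO-treated and 3 ABT-263-treated mice, each axis starting at 0. The groups are apart only for Pdpn, and single ABT-263-treated mice stand above the rest for Ly6a and Pdpn (mouse 476) and for Dpt and Fap (mouse 478).

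The fold changes of the reticular markers Dpt and Gsn had opposite signs, with both 95% intervals covering 0. Dpt (ENSMUSG00000026574, chr1:164796644-164824266, plus strand) encodes dermatopontin, a small matrix protein that binds decorin and promotes collagen fibril formation. It was at 169, 107, 233 and 225 CPM in DMSO-treated mice 480, 481, 482 and 483. ABT-263-treated mice 476, 477 and 478 had 236, 190.4 and 496 CPM. Mouse 478 held more than 2 times the level of every other mouse, mouse 476 was just above the highest control, and mouse 477 lay among them. The difference of 0.75 on the log2 scale (standard error 0.38, 95% interval -0.14 to 1.63, adjusted p = 0.184 by edgeR) was 0.22 without mouse 478. In mouse 478 adipocyte markers were also highest, at 1926 CPM in sum against 1458 and 697 CPM in mice 476 and 477 and 581 to 1515 CPM after DMSO. The part of fat tissue in the Dpt level was not tested.

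Gsn (ENSMUSG00000026879, chr2:35256380-35307892, plus strand), which encodes the actin-severing protein gelsolin in a cytoplasmic and a secreted form, was as even among the controls as Dpp4, the ends of their range differing 1.32-fold for both. It was at 1248, 1469, 1438 and 1648 CPM after DMSO and at 900, 963 and 1567 CPM after ABT-263. Mice 476 and 477 were below every DMSO-treated mouse, and mouse 478 was above 3 of the 4. Its log2 fold change of -0.34 (standard error 0.24, 95% interval -0.90 to 0.22, adjusted p = 0.326 by edgeR) stayed negative with each mouse left out, between -0.63 and -0.19. Skeletal muscle markers, which come from the muscle layer below the dermis, were at 34675 to 67514 CPM in sum after DMSO and at 26143 to 34779 CPM after ABT-263, with 3 of 7 called lower. Gelsolin is also made in muscle, and the part of muscle RNA in the Gsn level was not tested.

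The papillary marker Crabp1 (ENSMUSG00000032291, chr9:54764748-54773110, plus strand) encodes a cytosolic carrier of retinoic acid and is also made in the dermal papilla of the hair follicle. It was at 127, 48.9, 49.7 and 78.2 CPM in DMSO-treated mice 480, 481, 482 and 483. After ABT-263 it was at 54.7, 70.3 and 32.2 CPM in mice 476, 477 and 478. Mouse 478 was below every control, whereas mice 476 and 477 lay within the DMSO range, whose ends differed 2.61-fold. At -0.54 on the log2 scale (standard error 0.40, 95% interval -1.46 to 0.39, adjusted p = 0.352 by edgeR) it did not pass, and it was -0.17 without DMSO-treated mouse 480. Of 17 other retinoid handling genes tested, 1 was called, Aldh1a3, which makes retinoic acid and rose by 1.24 on the log2 scale. The paralog Crabp2 differed by 0.22 on the log2 scale (edgeR adjusted p = 0.781).

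Of the 3 activated markers, Pdpn and Fap were higher in mean after ABT-263, though not called by edgeR, and Lrrc15 had no stable direction. Pdpn (ENSMUSG00000028583, chr4:143267431-143299564, minus strand) encodes podoplanin, a mucin-like membrane protein that binds the platelet receptor Clec1b and links to actin through ezrin and moesin. It was at 43.5, 23.1, 30.9 and 53.0 CPM in DMSO-treated mice 480, 481, 482 and 483. After ABT-263 it was at 163, 56.9 and 60.2 CPM in mice 476, 477 and 478. All 3 treated mice were above all 4 controls. Groups that did not overlap, in either direction, were found for 1 of the 10 markers beside 37.1% of all genes tested. The gap between the highest control and the lowest treated mouse was small next to the excess in mouse 476. Its log2 fold change of 1.31 (standard error 0.43, 95% interval 0.30 to 2.32, adjusted p = 0.0623 by edgeR) was the largest among the markers. Without mouse 476 it was 0.64 (adjusted p = 0.198), and DESeq2 called it with all mice at 1.34 (adjusted p = 0.0137). The exact permutation test of mean log2 CPM over the mice gave p = 0.0571, two-sided, where 4 mice against 3 allow no value below 0.0286.

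Lymphatic endothelial markers, another source of Pdpn, summed to 14.6 to 38.3 CPM after DMSO and to 61.1, 33.3 and 37.2 CPM in mice 476, 477 and 478. Among those tested, 0 of 4 were called by edgeR (1 at an unadjusted p under 0.05, and 1 called by DESeq2). The lymphatic chemokine Ccl21a was listed at 0 in every library, which need not mean absence, since only uniquely aligned pairs were counted. Basal keratinocyte markers summed to 15527 to 29993 CPM in the controls and 13320 to 34817 CPM in the treated mice, highest in mouse 477. Wound keratinocyte markers were at 2569 to 19970 CPM after DMSO and at 9630, 22853 and 10470 CPM in mice 476, 477 and 478. The part of these cells in the Pdpn level was not tested.

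Fap (ENSMUSG00000000392, chr2:62500943-62574075, minus strand) encodes fibroblast activation protein, a membrane serine protease of the same family as Dpp4. It was at 7.61, 6.57, 10.7 and 10.2 CPM after DMSO in mice 480, 481, 482 and 483 and at 12.8, 10.7 and 21.8 CPM after ABT-263 in mice 476, 477 and 478. Mice 476 and 478 were above all controls, and mouse 477 was just below DMSO-treated mouse 482. The Fap difference of 0.79 on the log2 scale (standard error 0.29, 95% interval 0.13 to 1.44, adjusted p = 0.0770 by edgeR) was called without mouse 477 (1.00, adjusted p = 0.0422), as 21.6% of all genes then were, and was 0.43 without mouse 478. By DESeq2 it was 0.80 with all mice and called (adjusted p = 0.0475). Its smallest count, 156 in DMSO-treated mouse 481, was the lowest of any marker (exact Poisson 95% interval 132 to 182).

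Lrrc15 (ENSMUSG00000052316, chr16:30269302-30283256, minus strand), a leucine-rich repeat membrane protein of TGF-beta-driven myofibroblasts, showed no common direction. It was at 31.3, 65.4, 25.9 and 29.7 CPM in DMSO-treated mice 480, 481, 482 and 483. After ABT-263 it was at 11.2, 36.0 and 42.4 CPM in mice 476, 477 and 478. The highest level was in a control and the lowest in treated mouse 476, while mice 477 and 478 exceeded 3 of the 4 controls. For Lrrc15 the log2 fold change of -0.35 (standard error 0.49, 95% interval -1.49 to 0.80, adjusted p = 0.633 by edgeR) turned to 0.04 without mouse 481, to 0.05 without mouse 476 and to 0.43 without both. Hair shaft keratins, a list added after the data were seen, had 0 of 9 genes called by edgeR (0 at an unadjusted p under 0.05 and 0 by DESeq2) and the same extremes: 2359 CPM in mouse 481, the highest, and 1.93 CPM in mouse 476, the lowest, with 3.71 CPM in mouse 477 and 372 CPM in mouse 478. Their part in the Lrrc15 level was not tested.

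**Figure D3:**
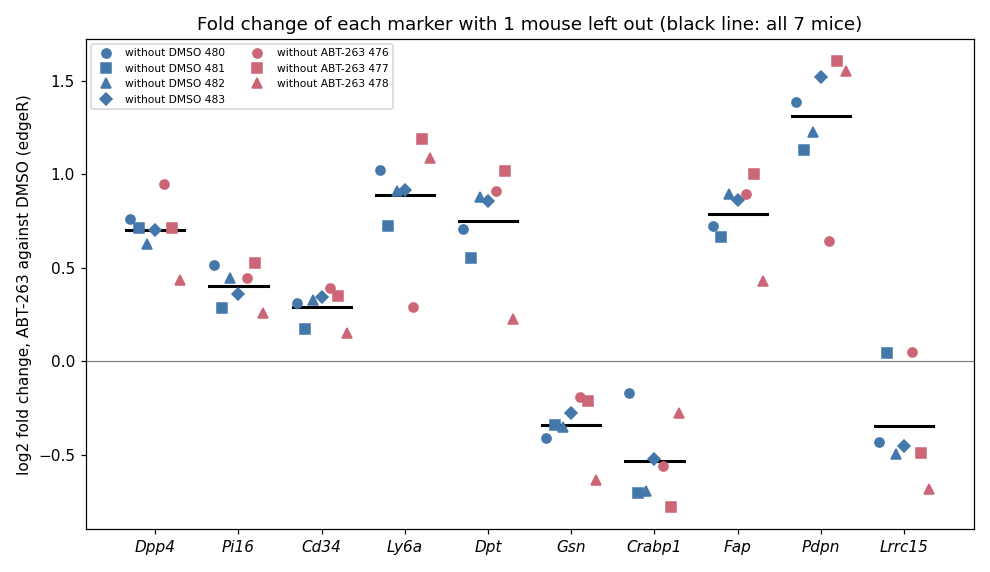
Log2 fold change of each subset marker by edgeR with 1 mouse left out at a time (symbols) and with all 7 mice (black lines). Leaving out mouse 476 moved Ly6a to 0.29 and Pdpn to 0.64, leaving out mouse 478 moved Dpt to 0.22, and Lrrc15 crossed 0 without mouse 481 or mouse 476.

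The mice that held the extremes of the markers were listed. How often each mouse holds the extreme of a gene at large was not computed, so these counts are not read as a trait of the markers. The highest value of 5 markers (Dpp4, Pi16, Cd34, Dpt and Fap) was in ABT-263-treated mouse 478 and that of 2 (Ly6a and Pdpn) in mouse 476. The lowest value of 6 (Pi16, Cd34, Ly6a, Dpt, Fap and Pdpn) was in DMSO-treated mouse 481. Mouse 477 held neither the highest nor the lowest value of any marker. Mouse 481 also had the lowest sums of general fibroblast genes and of macrophage, interferon-stimulated and blood endothelial genes among the 7 mice.

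**Figure D4:**
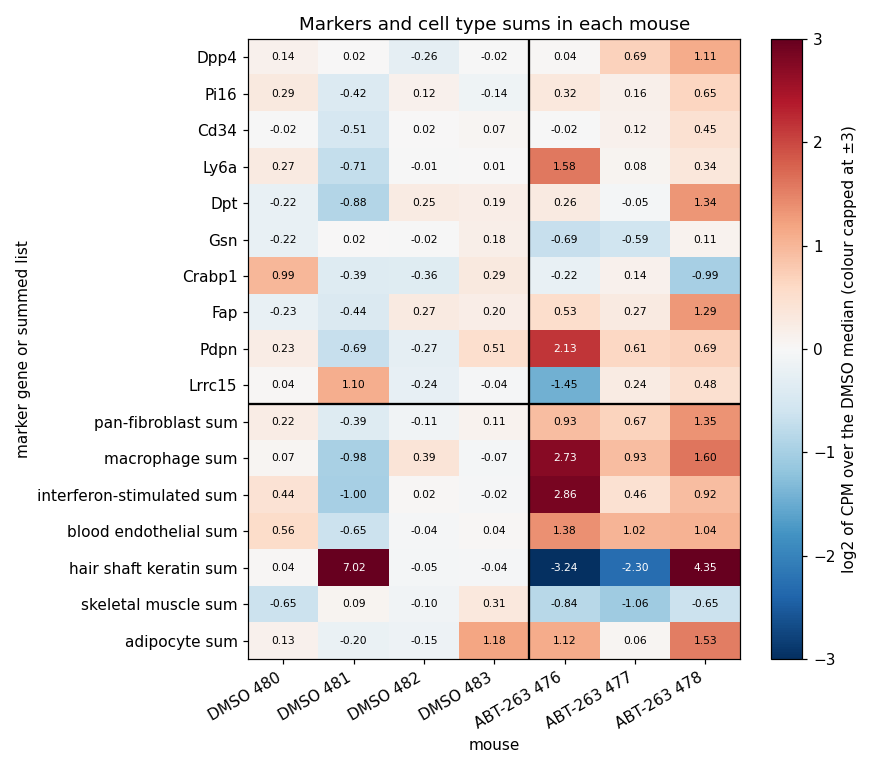
Log2 of CPM over the median of the DMSO-treated mice for each marker (upper rows) and for summed lists of other genes (lower rows), 1 column for each mouse, with the value printed in each cell and the colour capped at 3. Mouse 481 is low for most markers but 1.10 for Lrrc15, mouse 476 is at 2.13 for Pdpn and 1.58 for Ly6a with macrophage genes at 2.73, and mouse 478 is at 1.34 for Dpt and 1.29 for Fap.

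Between genes, levels were ordered on a scale per length, CPM per kilobase of exon. In DMSO-treated skin the order of the means was Gsn (460 ± 51.9, SD, n = 4), Ly6a (269 ± 70.0), Dpt (106 ± 34.0), Crabp1 (94.8 ± 45.9), Pi16 (44.5 ± 9.29), Pdpn (20.7 ± 7.30), Cd34 (17.0 ± 2.88), Lrrc15 (7.17 ± 3.46), Dpp4 (2.04 ± 0.232) and Fap (1.55 ± 0.353). The ranges over the DMSO-treated mice overlapped for 3 neighbouring pairs in that order, Dpt with Crabp1, Pdpn with Cd34 and Dpp4 with Fap, and not for the other 6. After ABT-263 the mean of Ly6a (499 ± 298, SD, n = 3) was above that of Gsn (362 ± 117). That exchange came from mouse 476, in which Ly6a was at 842 and Gsn at 285 CPM per kilobase, while Gsn was the highest in every other mouse. In the same mouse Lrrc15 stood last of the 10 and Pdpn took rank 4.

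**Figure D5:**
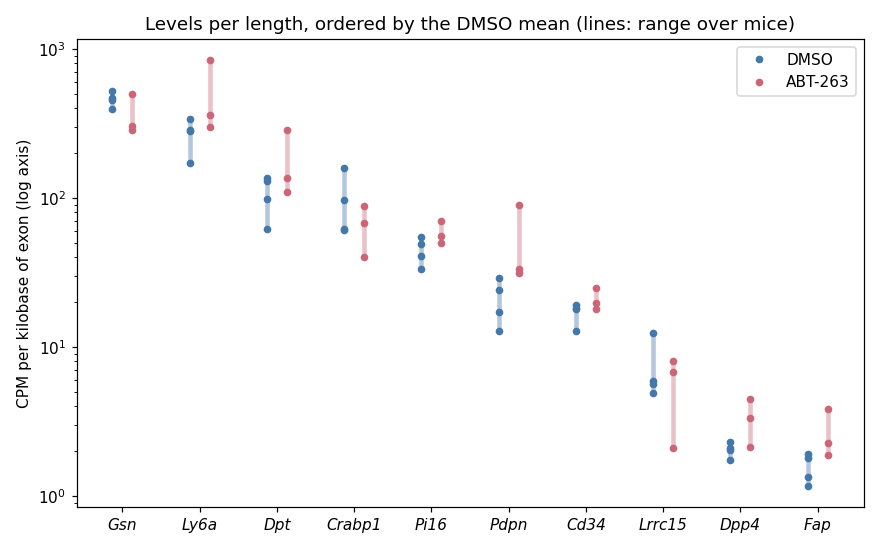
CPM per kilobase of exon of each subset marker on a log axis, ordered by the DMSO mean, with each mouse as a point and the range of each group as a line. The markers span from 1.55 for Fap to 460 for Gsn in the DMSO mean, and the lines of neighbours overlap for Dpt and Crabp1, Pdpn and Cd34, and Dpp4 and Fap.

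Each marker was also set against the general fibroblast genes of its own library. The log2 ratio of each marker to the summed CPM of the 14 general genes in the same library had a lower mean after ABT-263 for 9 of 10 markers. That sum had a mean of 6843 CPM after DMSO and 14048 CPM after ABT-263, so a gene that stayed level falls against it. The share of all genes with a lower mean ratio was not computed. For 5 markers every treated mouse was below every control, beside 61.2% of all genes tested that did the same, so this count is no larger than for genes at large. The differences were -0.62 for Pi16, -0.73 for Cd34, -1.41 for Gsn, -1.52 for Crabp1 and -1.49 for Lrrc15, each with p = 0.0286 by the exact permutation test, the smallest that the design allows. Those of Dpp4 (-0.38), Ly6a (-0.25), Dpt (-0.34) and Fap (-0.28) were within overlapping groups, and that of Pdpn was 0.17. The collagens made up 58.0% to 72.6% of the denominator, and with them left out 3 of the 5 lost the smallest p: Pi16 (-0.41, exact permutation p = 0.114), Crabp1 (-1.31, exact permutation p = 0.0857) and Lrrc15 (-1.28, exact permutation p = 0.171). With Pdgfra alone as the denominator all 5 had it, and Ly6a did too (-0.82, exact permutation p = 0.0286). Pdgfra itself rose by 1.72 on the log2 scale and was called, so any gene that rose less falls against it. The share over all genes was not computed for these other denominators, so their results are not read as a trait of the markers.

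Dpp4 and Fap lie near each other on chromosome 2, 88711 bases apart on the same strand, with 3 genes annotated between them (Gm13565, Gm13564 and Gcg). The log2 ratio of Dpp4 to Fap was 0.92, 1.02, 0.03 and 0.34 in DMSO-treated mice 480, 481, 482 and 483 and 0.07, 0.98 and 0.38 in ABT-263-treated mice 476, 477 and 478. The groups overlapped throughout, with means of 0.58 ± 0.47 (SD, n = 4) and 0.48 ± 0.46 (SD, n = 3) and p = 0.886 by the exact permutation test. In the dipeptidyl peptidase family, Dpp4 and Fap included, 1 of 7 genes tested was called, the prolyl endopeptidase Prep, which rose by 0.52 on the log2 scale (adjusted p = 0.0495 by edgeR).

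The other genes of each subset were taken from lists of known markers. Of 16 other fascia or progenitor genes, 4 were called higher and 1 lower, with a median log2 fold change of 0.47. That is 31.2%, beside 24.2% of all genes tested. The calls numbered 2 without mouse 482 or 483, 3 without mouse 481 or 476, and 2 without mice 481 and 476 together. The calcium-binding annexin Anxa3 (1.26) and the chemokine scavenging receptor Ackr3 (1.09) rose, and the transcription factor gene Creb5 fell by 1.35 on the log2 scale. Plac8 (3.07) was at 358 CPM in mouse 476 but at 29.3 and 79.2 CPM in mice 477 and 478, and was 1.56 without mouse 476 and no longer called (edgeR adjusted p = 0.0560). The protein C receptor gene Procr (1.50) was 0.87 without mouse 476 (edgeR adjusted p = 0.0506). Of 14 other reticular genes, 4 were called higher and 0 lower (28.6%), with a median of 0.32. These were the chemokines Cxcl12 (1.97) and Ccl11 (1.65), the imprinted gene Mest (1.54) and the complement component C3 (1.91). Without mice 481 and 476 together 1 of these was called. Procr and C3 were named after their values were seen. Of 12 other papillary genes, 1 was called higher and 1 lower (16.7%), with a median of -0.30. The membrane collagen gene Col13a1 (1.56) rose, and the transcription factor gene Tcf4 fell by 1.02. There was 1 call without mouse 482, 483, 477 or 478, and there were 4 calls by DESeq2 or after correction for transcript length and GC content.

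Of 16 other activated fibroblast genes, 7 were called higher and 0 lower (43.8%, beside 24.2% of all genes tested), with a median of 1.35. The metalloprotease Adam12 (1.99), the collagen cross-linking enzyme Lox (1.64) and the secreted matrix protein Cthrc1 (2.23) rose with the smallest p-values. Acta2, the actin of contractile myofibroblasts and smooth muscle, differed by 0.18 on the log2 scale (edgeR adjusted p = 0.472) and was named after its value was seen. Leaving out 1 mouse gave 3 to 6 calls among the 16, with 3 without mouse 480 or 481 and 4 without mouse 482, 476 or 478. Of 10 genes of the TGF-beta response, through which myofibroblasts are induced, 2 rose, Bhlhe40 (0.62) and Skil (1.00, and 0.64 without mouse 476), and 0 fell. The dermal papilla, the fibroblast cluster at the base of the hair follicle, had 0 of 10 genes higher and 3 lower (30%), with a median of -1.18. The Wnt amplifier Rspo3 fell by 1.67, the prolactin receptor gene Prlr by 1.20 and Bmp4 by 1.47 on the log2 scale. DESeq2 called 5 of the 10, counted without regard to direction. At an unadjusted p under 0.05 by edgeR there were 6, of which 2 were higher. The part of the dermal papilla in the Crabp1 level was not tested. Hair follicle bulge markers, from the epithelial stem cell niche, were lower in sum as well, 1315 to 2874 CPM after DMSO and 511 to 1108 CPM after ABT-263, with 3 of 6 called lower.

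Binding partners and relatives of the markers were counted in lists of their own, beside the 24.2% of all genes tested that were called. Among 7 genes for partners of podoplanin, Clec1b (2.46), Ezr (0.91) and Msn (0.84, and 0.48 without mouse 476) rose, and the related linker gene Rdx fell by 0.95 on the log2 scale. Clec1b was near the limit of detection, at 0.04 to 0.26 CPM after DMSO and 0.60 to 1.36 CPM after ABT-263. Among 8 genes for partners of dermatopontin and fibril proteins, the integrin gene Itgb1 (1.04), the proteoglycan gene Bgn (1.19) and the fibronectin gene Fn1 (1.13, and 0.58 without mouse 478) rose and 0 fell. In the gelsolin family, Gsn included, 1 of 6 was called, Flii (0.43). In the Ly6 family, Ly6a included, 1 of 8 was called, Ly6c2 (4.68), a monocyte surface gene with 76.9 CPM in mouse 476 and 2.42 and 4.38 CPM in mice 477 and 478. Without mouse 476 the log2 fold change of Ly6c2 was 1.66 and not called. Of 3 genes of the sialomucin family, Cd34 included, 1 was called, Podxl2, which fell by 0.68.

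The profile of a marker over the 7 libraries was also compared with those of 11446 protein-coding genes with a mean of at least 5 CPM, by the root mean square distance of log2 CPM values centred on each gene's mean. The nearest to Cd34 were Mrc2 (distance 0.0861), Podxl (0.0890) and Eci2 (0.0925). The nearest to Ly6a were Nfam1 (0.111), Ggt5 (0.112) and B2m (0.117), each of which also peaked in mouse 476. The nearest to Dpt were Islr (0.166), the marker Fap (0.190) and Thbs3 (0.204), with their highest values in mouse 478. The nearest to Pdpn were Adamts9 (0.152), Tmem8 (0.180) and Nfkbie (0.183), again highest in mouse 476. The nearest to Lrrc15 were Sox21 (0.139), Gli1 (0.224) and Robo1 (0.241), which were highest in mouse 481 and lowest in mouse 476. Among the markers themselves the closest pairs were Pi16 with Cd34 (0.168), Dpt with Fap (0.190) and Ly6a with Pdpn (0.298). All these distances share the same 7 libraries and describe them without a test.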

How the data were processed

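Dorsal skin RNA of 7 mice was measured by bulk sequencing, and groups and mouse numbers follow the labels. The authors deposited raw counts per Ensembl gene: reads were aligned to mm10 with STAR 2.7.9a, and uniquely aligned proper pairs on the same strand were counted with featureCounts (Subread 1.6.2) for non-mitochondrial genes. Variance-stabilized values on a log2 scale, which the authors made with DESeq2 1.23.10 and also deposited, served in 1 alternative. The labels and the paper name different RNA extraction kits. Symbols, positions and exon lengths came from GENCODE M21 on GRCm38 (55190 of 55450 identifiers), which differs from the annotation that the authors counted on. Libraries of unequal depth were compared after TMM scaling.

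Tests used edgeR 4.0.16 (filterByExpr, robust quasi-likelihood fit) in R 4.3.3, tested on simulated data first. Exact permutation tests enumerated all 35 splits of the mice. Alternatives were the DESeq2 1.42.0 Wald test and its size factors, 4 other gene filters or depths (every gene with a count, 10 or more counts in all samples, only protein-coding genes, counts thinned to the smallest library), removal of length and GC trends (mgcv 1.9.3), limma 3.58.1 on the deposited values, other denominators, and leaving out each mouse. Leaving out mice 481 and 476 together and the hair shaft keratin list were added after seeing the data. The markers and gene lists were chosen with earlier results of these data known. Named from each list were all markers, up to 3 called genes per direction by p-value, and relatives or partners of a marker. Gene profiles were compared on log2(CPM + 0.5). Promoter windows came from RefSeq. The study's other measurements were not analysed here.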

Additional observations from a re-analysis of the deposited data

Results flagged for a closer look

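Of 50 measures examined among the 4 DMSO-treated mice, 7 had a highest or lowest mouse whose gap to its nearest neighbour, divided by the range of the group, exceeded the 95% critical value of Dixon's test, where chance alone would give 2.5. Lrrc15 had a gap ratio of 0.863, since mouse 481 was at 65.4 CPM and the other 3 at 25.9 to 31.3 CPM. Relative to the general fibroblast genes, mouse 481 stood apart for Lrrc15 (gap ratio 0.965) and for Dpp4 (0.880), both highest in that mouse, which also had the lowest sum of those general genes. Hair shaft keratins, whose list was added because of their level in mouse 481 and which are not among the 50 measures, had a gap ratio of 0.99955 at 2359 CPM in that mouse, which restates the reason for the list.

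Mouse 480 stood apart in the sums of basal keratinocyte markers (gap ratio 0.850, 29993 CPM), wound keratinocyte markers (0.847, 19970 CPM) and mast cell markers (0.878, 159.8 CPM), and mouse 483 in the sum of adipocyte markers (0.837, 1515 CPM). Each was above the other DMSO-treated mice. Groups of 3 mice were not examined in this way.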

How the results depend on the processing

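The number of markers called, 0 of 10, became 3 with the DESeq2 Wald test, was 0 to 1 when single mice were left out and was 1 without mice 481 and 476 together. Over all genes the count of 4342 ranged from 1735 (without mouse 478) to 4169 when single mice were left out, with 2837 without mouse 481, 1824 without 482, 2063 without 483 and 2228 without 476, and it was 1692 without mice 481 and 476. General fibroblast genes called were 5 to 8 with each mouse left out. Other activated genes called were 3 without a filter on low counts, 3 to 6 with each mouse left out and 4 without mice 481 and 476. The log2 fold change of Lrrc15 turned to 0.042, 0.051 and 0.43 without mouse 481, without mouse 476 and without both, within -0.68 to 0.051 when single mice were left out. Relative to the general fibroblast genes, Ly6a turned to 0.091 without mouse 478 (range -0.73 to 0.091), and Pdpn to -0.35 without mouse 476 (range -0.35 to 0.58) and to -0.39 with Pdgfra as the denominator. The ratio of Dpp4 to Fap turned to 0.02, 0.05 and 0.10 without mouse 480, 481 or 476. The cause was not tested for any of these, apart from the smaller number of mice that leaving out implies.

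Of the alternatives for the markers' own fold changes, 151 kept direction and side of the threshold, 6 passed it and 3 turned. With CPM on total counts in place of TMM, the exact permutation p of Cd34 (0.39), Fap (0.84) and Pdpn (1.29 on the log2 scale) was 0.0286. Of the 74 list genes called with all mice, 25 were called in each of the 7 fits that left out 1 mouse and 74 kept their sign in each, and 32 (without mouse 482) to 60 (without mouse 477) were called in a single such fit. No paired analysis was possible because the groups share no replicate numbers. The smallest count of any marker was 156, and with 4 mice against 3 the widest 95% interval ran from -1.49 to 0.80 (Lrrc15).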

Other observations

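Beyond fibroblasts, macrophage, neutrophil and blood endothelial genes were called higher after ABT-263, as were 12.4% of all genes tested. Of 8 macrophage markers, 7 rose, among them the scavenger receptor gene Cd163 (log2 fold change 2.07), the growth factor receptor gene Csf1r (1.55) and the lysozyme gene Lyz2 (2.43). Of 6 neutrophil markers tested, 3 rose, Csf3r (3.73), S100a8 (2.98) and Retnlg (7.40). Mouse 476 held 232 CPM of Retnlg, mice 477 and 478 2.09 and 3.03 CPM, and without mouse 476 its log2 fold change was 2.47 and not called, with Csf3r at 2.20 and S100a8, also not called, at 2.75. The summed level was 100.4 to 1822 CPM in the controls and 5098 to 8377 CPM in the treated mice. T cell markers, at 23.7 to 46.2 CPM in sum after DMSO and 19.0 to 60.5 CPM after ABT-263, had 0 of 8 called by edgeR, 0 at an unadjusted p under 0.05 and 1 by DESeq2. Mast cell markers had 0 of 6 called by edgeR, 2 at an unadjusted p under 0.05 and 1 by DESeq2.

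Of the blood endothelial markers, Cdh5 (1.92), Tek (1.41) and Kdr (0.97) rose with the smallest p-values. Among interferon-stimulated genes, Mx1 (1.91), Cxcl10 (3.03) and Gbp2 (4.29) did. Mouse 476 held 611 CPM of Gbp2 and 54.1 CPM of Cxcl10, whereas mice 477 and 478 held 41.5 and 57.9 CPM of Gbp2 and 8.54 and 7.52 CPM of Cxcl10. Without mouse 476 the log2 fold changes of Gbp2 and Cxcl10 were 2.04 and 1.50, both called, and Mx1, at 1.87, was not. Of 7 skeletal muscle markers, Tnnc2, Tnnt3 and Mb fell by 1.65, 1.16 and 1.45 on the log2 scale. Of 6 bulge markers, Sox9, Krt15 and Lhx2 fell by 1.29, 1.45 and 1.19. Keratinocyte lists had few calls: Itga6 (0.60) of 5 basal markers, and 0 of 6 suprabasal and 0 of 5 wound markers, both also 0 by DESeq2 and at an unadjusted p under 0.05 by edgeR. Smooth muscle and pericyte markers had 0 of 6 called by edgeR, 3 at an unadjusted p under 0.05 and 0 by DESeq2. Adipocyte markers had 1 of 6 called, Pck1 (2.48).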
